A study of Mus musculus with 4 samples.

Results

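The genes of the mitochondrial respiratory chain were followed across the cell classes of mouse kidneys with experimental glomerulonephritis. Members were all gene symbols of the count table that begin with mt-, Nduf, Sdha to Sdhd, Uqcr, Cox4i, Cox5, Cox6, Cox7, Cox8 or Atp5, without pseudogene symbols. This rule used no measured value and gave 101 of 16706 genes. Of these, 13 are encoded in the mitochondrial genome (7 of complex I, 1 of complex III, 3 of complex IV and 2 of complex V). The other 88 are nuclear: 36 subunits of complex I, 8 complex I assembly factors (Ndufaf), 4 subunits of complex II, 8 of complex III, 15 of complex IV, 15 of complex V, the complex V factor Atp5s and the supercomplex factor Cox7a2l. Every member had at least 1 unique molecular identifier (UMI, one counted RNA molecule) in each library.

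The mice were males of the C57Bl/6 background that carried Pax2.rtTA, TetO.Cre and R26.Confetti, a Pax2-driven inducible lineage reporter, and were 9 weeks old. All of them, controls included, received anti-GBM serum, which starts crescentic glomerulonephritis, and all were killed on day 7. From day 1 they were given distilled water (vehicle), 15 mg/kg panobinostat or 10 mg/kg givinostat, both histone deacetylase inhibitors, or 60 mg/kg ruxolitinib, an inhibitor of the kinases JAK1 and JAK2. Each group had 2 animals and 1 library of dissociated whole kidney. The cell names give 4 libraries, of which the one named CTRL was taken as vehicle because it alone names no drug. Whether cells of both animals were pooled is not stated, and no library came from mice without serum. The drugs are therefore compared without replicates, each against the same vehicle library, and no p-value or standard error is given for them. Contrasts between cell classes were taken within libraries and tested over the libraries, which differ in treatment.

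The respiratory chain passes electrons from NADH (complex I) and succinate (complex II) through complex III to oxygen at complex IV. The proton gradient that this builds drives ATP synthesis by complex V. All complexes but complex II mix subunits from both genomes, so the 2 sets of transcripts are made in different compartments by different polymerases. In the kidney, tubule segments that move much salt are rich in mitochondria, and the proximal tubule draws mainly on fatty acid oxidation for its ATP.

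The 2 shortest mitochondrial genes are shown because their share of the mitochondrial UMIs was above vehicle in all 11 classes with givinostat. Both lie on mouse mitochondrial DNA (GRCm38), plus strand, mt-Atp8 at chrM:7766-7969 and mt-Nd4l at chrM:9877-10173, and the capitals mark the 43 bases that mt-Atp8 shares with mt-Atp6 and the 7 that mt-Nd4l shares with mt-Nd4. A read within the capitals fits both genes of a pair, and how such reads were counted is not given in the sources used here.
mt-Atp8: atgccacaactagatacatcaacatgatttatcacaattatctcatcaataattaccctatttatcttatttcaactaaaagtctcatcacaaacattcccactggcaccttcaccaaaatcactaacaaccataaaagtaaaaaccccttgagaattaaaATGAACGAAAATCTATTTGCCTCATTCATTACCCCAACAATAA
mt-Nd4l: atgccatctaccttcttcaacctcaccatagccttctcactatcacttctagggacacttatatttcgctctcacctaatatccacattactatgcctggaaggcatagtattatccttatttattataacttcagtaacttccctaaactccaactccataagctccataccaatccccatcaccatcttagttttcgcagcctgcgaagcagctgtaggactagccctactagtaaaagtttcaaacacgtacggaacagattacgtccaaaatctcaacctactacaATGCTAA

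Of the 88 nuclear members, 71 had a promoter in the RefSeq table for GRCm38.p6. The 250 bases before the start were searched on both strands for the motif of nuclear respiratory factor 1 (NRF1, GCGCA, any base and then GCGC), a regulator of nuclear respiratory chain genes. The motif was in 14 of the 71 (19.7%) and in 4.23% of all 27025 genes with a promoter. The motif of GABP, also called NRF2 (CCGGAAGT), was in 3 members (4.23%) against 3.23% of all genes, and that of YY1 (AAGATG followed by GCGGC) in 0 members against 0.248%. The promoters of a broadly expressed and a tissue-restricted subunit are shown as examples, with matches in capitals: Atp5h, a stalk subunit of complex V (chr11:115419920-115420169, minus strand), holds 1 NRF1 and 1 reverse GABP match that do not overlap. Cox7a1, the heart and muscle isoform of a small complex IV subunit (chr7:30183921-30184170, plus strand), holds none of the 3. Its widespread partner Cox7a2 also holds none. Of the 71 members 16 held any of the 3 motifs, and Atp5h alone held both NRF1 and GABP, so it does not stand for broadly expressed subunits. A match is only a match of letters.
Atp5h: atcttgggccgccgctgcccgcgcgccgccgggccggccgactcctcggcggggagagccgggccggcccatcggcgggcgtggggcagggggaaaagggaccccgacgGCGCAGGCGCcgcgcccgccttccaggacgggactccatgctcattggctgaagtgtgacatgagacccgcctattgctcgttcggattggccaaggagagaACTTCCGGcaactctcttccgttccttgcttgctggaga
Cox7a1: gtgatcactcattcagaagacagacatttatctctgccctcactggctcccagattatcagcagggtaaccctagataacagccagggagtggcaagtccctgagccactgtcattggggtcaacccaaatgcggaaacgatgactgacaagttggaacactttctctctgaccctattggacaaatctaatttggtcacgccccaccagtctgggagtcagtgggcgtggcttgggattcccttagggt

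The 4 libraries held 3930, 4396, 3472 and 3979 cells with at least 200 genes (vehicle, panobinostat, givinostat and ruxolitinib, the order in which 4 values stand throughout). They held 36861583 to 45075309 UMIs, with a median of 6568.5 to 10020.5 per cell. The highest mitochondrial share of any cell was 39.96% to 39.98% in each library, so cells above about that share had been left out before deposit and every mitochondrial level is that of the cells below it. Cell classes were named "-like" from marker genes after clustering without the 101 members. Between 9 and 11 cells per library carried a barcode found in another library. The markers of the proximal tubule were seen in every class: summed over 15 genes they stood at 1.23% to 7.37% of the proximal tubule-like level in collecting duct-like cells, 2.46% to 11.0% in loop of Henle-like cells and 7.99% to 24.2% in distal convoluted tubule-like cells. In endothelial-like cells they stood at 13.4% to 19.1%, in macrophage-like cells at 10.4% to 18.3% and in T-like cells at 2.91% to 5.39%.

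Both gene sets stood higher in tubule than in T-like cells in every library. Mitochondrial UMIs made up 18.2%, 17.2%, 16.8% and 17.8% of all UMIs of proximal tubule-like cells and 24.3%, 24.0%, 21.0% and 25.2% of those of distal convoluted tubule-like cells, which reabsorb salt through the thiazide-sensitive transporter. They made up 6.30%, 6.95%, 5.75% and 6.19% in T-like cells. The lowest tubule value, 10.8% in loop of Henle-like cells of the givinostat library, lay above all values of T-like cells. The share in macrophage-like cells was 9.56%, 11.0%, 9.36% and 8.29%, so its highest value reached the lowest loop values.

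The nuclear members were read in counts per 1000000 UMIs of genes not encoded in mitochondria (CPM), so that the mitochondrial share cannot move them. Summed over the 88 genes they stood at 54166, 55944, 49143 and 50663 CPM in proximal tubule-like cells and at 74880, 77042, 80487 and 70935 in distal convoluted tubule-like cells. Intercalated-like cells, the acid and base secreting cells of the collecting duct, had 79427, 71928 and 73820 CPM (vehicle, givinostat and ruxolitinib, the panobinostat library held under 50 of them). The distal convoluted and intercalated values overlapped each other and lay above all values of the proximal tubule-like, loop-like and collecting duct-like classes taken as a whole. Within the proximal tubule-like class, clusters 2, 4 and 5 reached 72684 to 85084 CPM, as high as both. T-like cells had 19155, 19845, 18501 and 18165 CPM. They were lowest in 3 of 4 libraries among the 5 leukocyte classes with at least 50 cells in every library. B or plasma-like cells, too few in the vehicle library, had 24926, 18212 and 18148 CPM, slightly below T-like cells with givinostat and ruxolitinib.

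The number of mitochondrial UMIs per nuclear respiratory chain UMI does not depend on any library total. It was 2.75, 2.63, 2.31 and 2.32 in loop of Henle-like cells, against 4.10, 3.72, 4.11 and 4.28 in proximal tubule-like cells. The loop values were the lowest of the tubule classes taken as a whole in every library, though cluster 5 of the proximal tubule-like cells lay lower, at 2.17, in the panobinostat library. Collecting duct principal or connecting tubule-like cells had 5.10, 5.41, 5.11 and 5.20, above every other such class in every library. Single clusters of the proximal tubule-like cells lay higher still. Cluster 6 did so with vehicle, givinostat and ruxolitinib (5.45, 5.16 and 5.98), and S3-like cluster 19 with panobinostat and ruxolitinib (5.44 and 5.69). Loop-like cells thus held fewer mitochondrial messages for each nuclear respiratory chain message than the segments on either side.

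**Figure D1:**
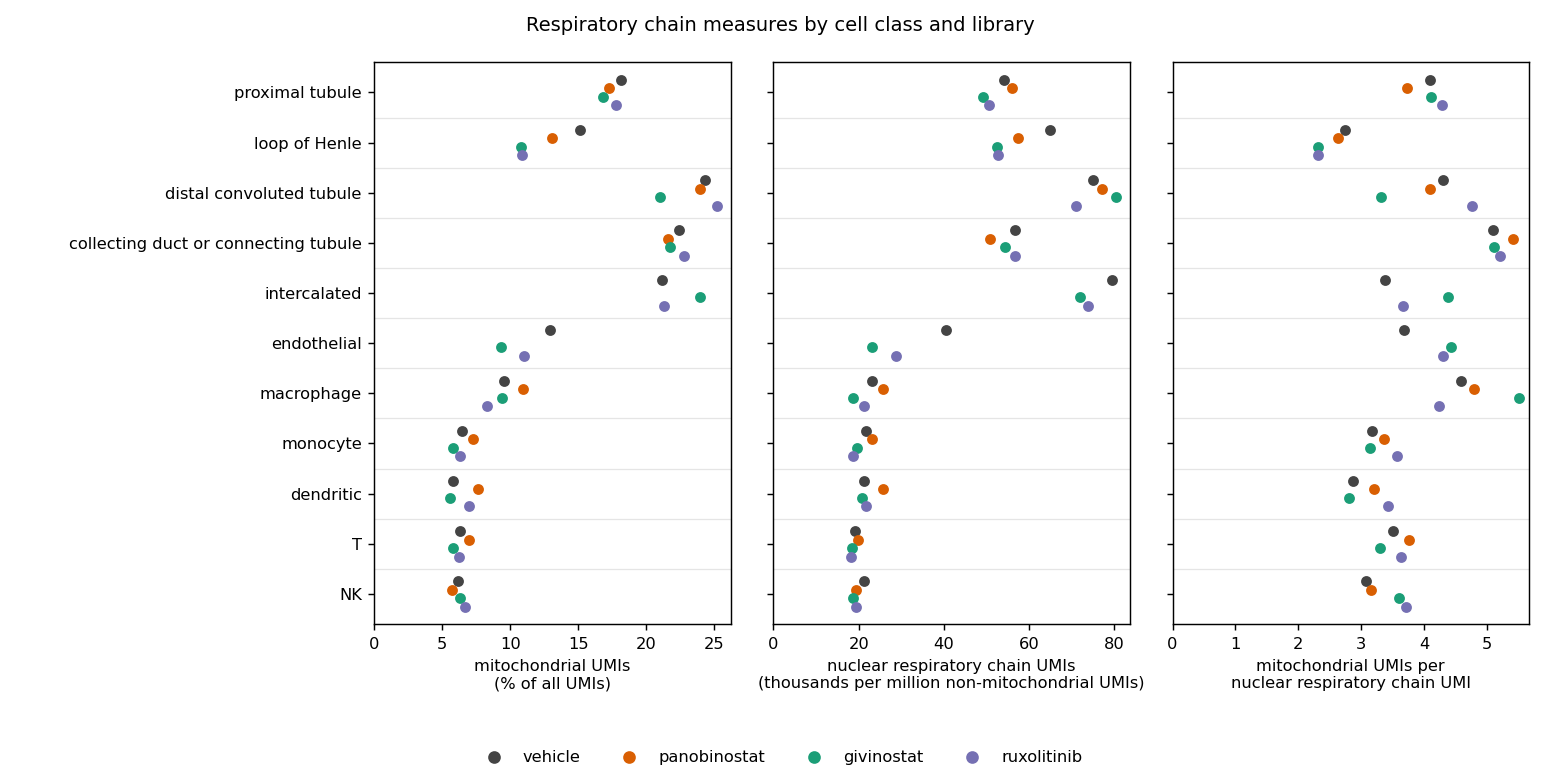
Mitochondrial share of all UMIs, summed level of the 88 nuclear members and mitochondrial UMIs per nuclear member UMI (x axes) in 11 cell classes (rows), 1 point per library with at least 50 cells. Loop of Henle-like cells sit lowest among the tubule classes in the right panel, between 2.31 and 2.75, while their nuclear level overlaps that of proximal tubule-like cells.

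Single genes were then contrasted between classes within libraries. The proximal tubule-like class entered as a pool of unlike clusters, so counts against it hold against the pool, not against each cluster. Its clusters 2, 4 and 5 had summed nuclear levels of 72684 to 85084 CPM, as high as distal convoluted and intercalated-like cells. Between loop of Henle-like and proximal tubule-like cells, 12 of 13 mitochondrial members were lower and 0 higher, with a median log2 fold change of -0.64, while 29 of 87 nuclear members tested were higher and 13 lower, with a median of 0.09 (edgeR quasi-likelihood test, Benjamini-Hochberg adjusted p under 0.05 over 12513 genes). Of all genes tested, 42.7% were higher and 21.4% lower in this contrast, so the share of nuclear members called was below that of genes at large in both directions. The strongest mitochondrial difference was in mt-Nd6, the only subunit on the other strand: its level was 70.6, 54.2, 73.5 and 58.8 CPM in loop-like and 119, 110, 183 and 135 in proximal tubule-like cells, with no overlap. Its log2 fold change was -1.06 (SE 0.13, edgeR, Benjamini-Hochberg adjusted p = 3.93e-09). The complex I subunits mt-Nd2 and mt-Nd5 followed at -0.93 (SE 0.12) and -0.92 (SE 0.12).

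The directions of the nuclear counts depend on the scaling. With edgeR's TMM factors the loop contrast called 4 nuclear members higher and 40 lower, and with DESeq2 size factors 9 and 21 while the median of all genes moved from 0.28 to -0.04 and 0.11. Such factors move all genes of a contrast alike, so the place of the members relative to the median of all genes is nearly the same under each by construction. Against that median the nuclear members lay at -0.20 on the log2 scale in loop-like, 0.24 in distal convoluted tubule-like, -0.33 in collecting duct-like and 0.13 in intercalated-like cells. Without the vehicle library the loop contrast called 17 nuclear members higher, and without the ruxolitinib library 7 lower.

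Distal convoluted tubule-like cells had the broadest increase over the pooled proximal tubule-like class. There 65 of 87 nuclear members were higher and 1 lower (34.5% and 18.1% of all genes), and 11 of 13 mitochondrial members were higher and 0 lower (edgeR). TMM scaling left 29 higher and 8 lower nuclear members and 3 higher mitochondrial ones. All 15 nuclear subunits of complex V and all 8 of complex III were among the higher ones, with medians of 0.66 and 0.47. With TMM factors 10 of the 15 and 2 of the 8 were higher and 0 lower. Cox7b, a small subunit of complex IV, had 1493, 1557, 1977 and 1570 CPM against 816, 814, 794 and 790 in proximal tubule-like cells. These values lie far apart in each library (log2 fold change 1.04, SE 0.11, edgeR, Benjamini-Hochberg adjusted p = 3.76e-10). The catalytic subunit mt-Co1 rose by 0.94 (SE 0.10). The class rests on 302 cells, carried 7.99% to 24.2% of the proximal tubule marker level, whose part was not tested, and formed no named class when the members were used in clustering.

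Intercalated-like cells had 62 nuclear members higher and 3 lower (43.7% and 17.7% of all genes), and 8 mitochondrial members higher and 1 lower. With TMM factors these became 20 and 12 and 1 and 5. Without the givinostat library 4 mitochondrial members were higher and 0 lower. All 15 complex V subunits were again among the higher ones, and 5 of them with TMM factors, with 0 lower. Atp5h, whose promoter is shown above, had 2130, 1709 and 2085 CPM against 962, 1094, 819 and 965 in proximal tubule-like cells, with no overlap (log2 fold change 1.07, SE 0.10, edgeR, Benjamini-Hochberg adjusted p = 7.41e-12). Ndufv3 and Ndufb4, accessory subunits of complex I, fell by 0.67 (SE 0.12) and by 0.53 (SE 0.13).

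In collecting duct principal or connecting tubule-like cells 21 nuclear members were higher and 19 lower (47.1% and 20.8% of all genes), and 7 mitochondrial members higher and 1 lower. With TMM factors 2 nuclear members were higher and 58 lower, and 1 mitochondrial member higher and 6 lower. Without the ruxolitinib library 12 nuclear members were higher. Complex V had 7 of 15 higher and 0 lower, turned by TMM factors to 0 and 7, and complex I had 7 higher and 13 lower of 36, with TMM factors 1 and 27. Relative to all genes both lay lower, by medians of -0.22 and -0.44. Sdhb, the iron-sulfur subunit of complex II, had 305, 282, 264 and 303 CPM against 529, 555, 458 and 489, and fell by 0.81 (SE 0.10, edgeR, Benjamini-Hochberg adjusted p = 7.66e-09). Ndufa5, an accessory complex I subunit, rose by 0.78 (SE 0.13).

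Endothelial-like cells were low in almost all members against the pooled proximal tubule-like class. Of the nuclear members 76 were lower and 1 higher (20.4% and 43.6% of all genes), and all 13 mitochondrial members were lower, with medians of -0.77 and -0.85. Relative to all genes the nuclear median was -1.15. All 36 complex I subunits, all 4 of complex II and all 8 of complex III were lower. Sdhb had 279, 202 and 156 CPM (vehicle, givinostat and ruxolitinib) and fell by 1.22 (SE 0.12, edgeR, Benjamini-Hochberg adjusted p = 2.22e-11). The class held 50 to 68 cells in these libraries. Its summed nuclear level with vehicle, 40377 CPM, was near that of proximal tubule-like clusters 0, 1 and 6 (40921, 44069 and 43021). With givinostat and ruxolitinib it lay below those clusters, at 23163 and 28720 against at least 33336 and 37278.

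Among leukocytes, macrophage-like cells had 40 nuclear members higher and 3 lower than T-like cells (35.9% and 26.4% of all genes), and 12 of 13 mitochondrial members higher and 0 lower, with a median of 0.68. All 4 subunits of complex II were higher. Ndufc2, an accessory complex I subunit, had 262, 279, 228 and 304 CPM in macrophage-like and 124, 144, 122 and 134 in T-like cells (log2 fold change 1.03, SE 0.09, edgeR, Benjamini-Hochberg adjusted p = 3.93e-13). Once cells above 2 times the median UMIs of their class and library were left out, an alternative chosen after seeing the data, 13 nuclear members were higher and 14 lower and 9 mitochondrial members higher. The nuclear count thus depended on the cells with the most UMIs. The proximal tubule markers stood higher in macrophage-like than in T-like cells in every library, and their part was not tested.

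**Figure D2:**
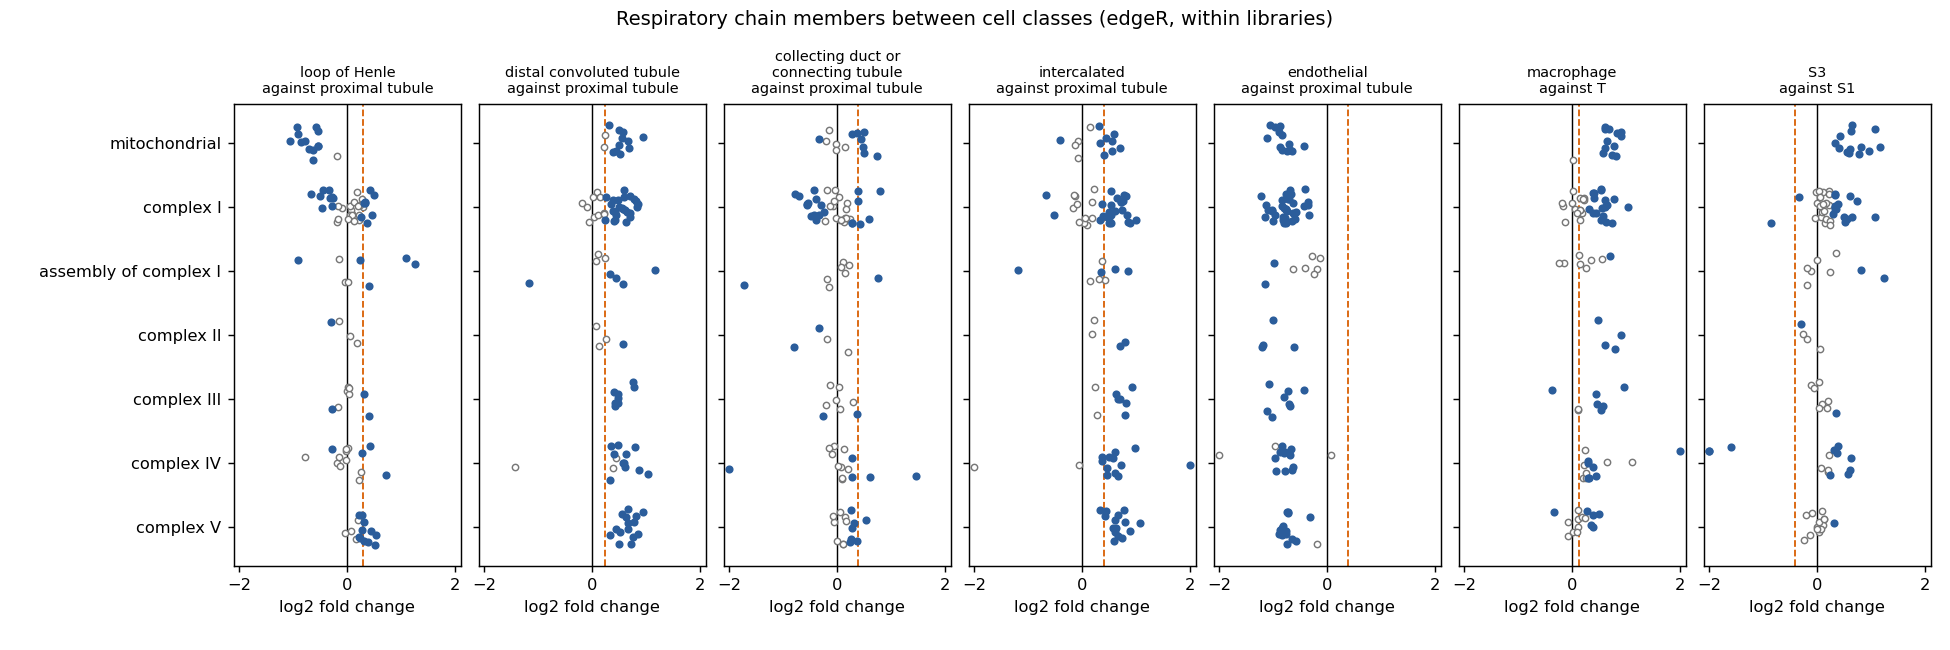
Log2 fold change (x axis) of each member in 7 class contrasts, grouped by complex (rows). Filled points passed the adjusted p of 0.05, open ones did not, dashed lines mark the median of all genes tested and values beyond 2 are drawn at 2. Mitochondrial members lie left of 0 in the loop and endothelial contrasts, and complex V has no filled point left of 0 in the loop, distal convoluted, collecting duct and intercalated contrasts, while TMM factors gave 2 lower in the first and 7 lower in the third.

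The make-up of the nuclear UMIs, which needs no scaling between cells, also differed between segments. Complex V took 26.3%, 27.1%, 26.2% and 26.8% of the nuclear member UMIs of proximal tubule-like cells and 29.3%, 29.8%, 29.9% and 29.8% of those of loop-like cells. The proximal tubule-like value was below those of the loop-like, distal convoluted, collecting duct-like and intercalated-like classes in every library where they were measured. Complex I took 29.3%, 29.7%, 29.1% and 29.4% in proximal tubule-like cells, above those 4 classes in every library. Endothelial-like cells overlapped the proximal tubule-like ones in complex I. Complex II, which holds no mitochondrial subunit, took 2.91% to 3.14% in proximal tubule-like and 1.92% to 2.17% in T-like cells.

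**Figure D3:**
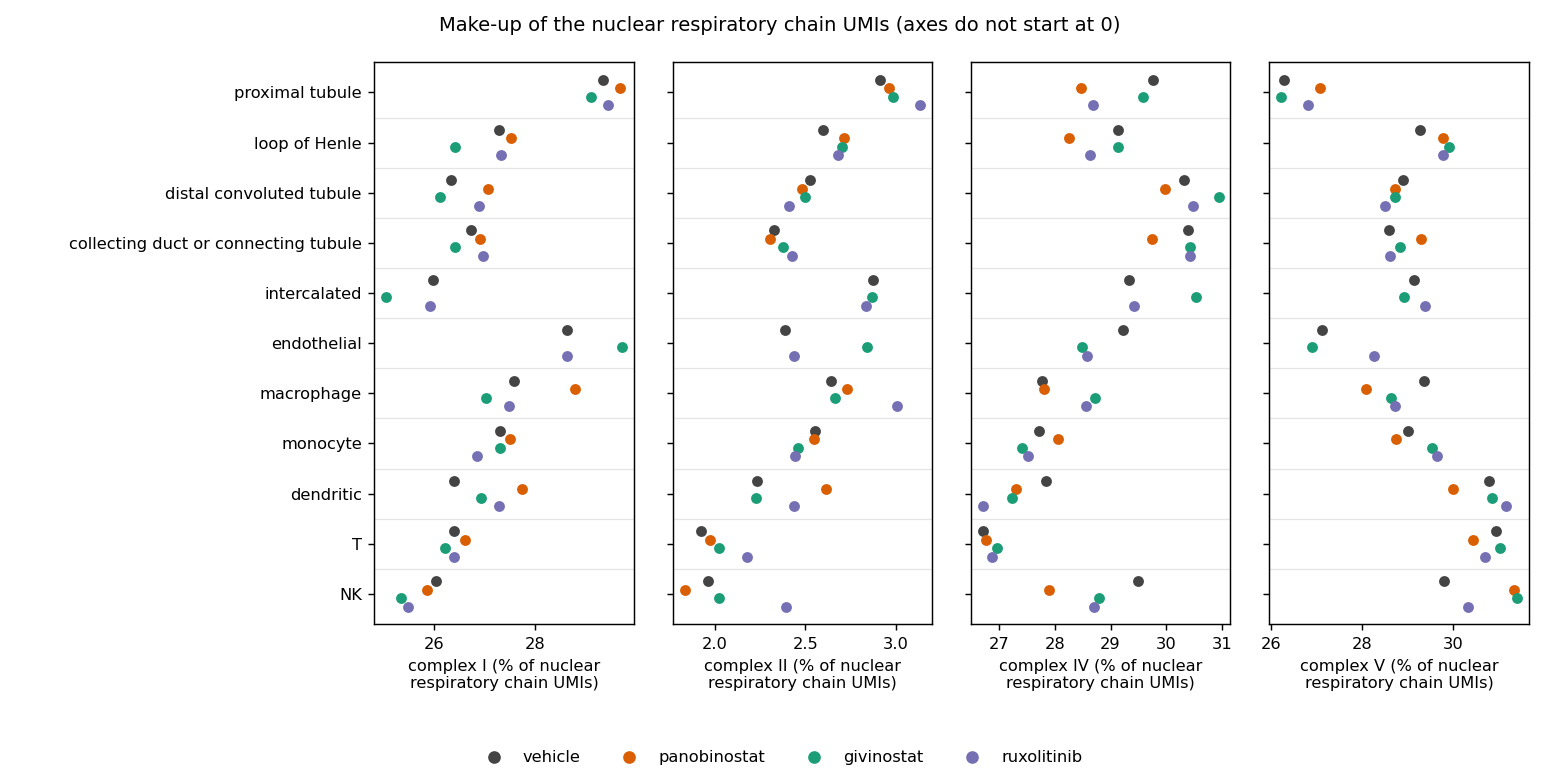
Share of the nuclear member UMIs (x axes, not starting at 0) that belonged to complexes I, II, IV and V in 11 cell classes (rows), 1 point per library. Proximal tubule-like cells lie at 29.1% to 29.7% for complex I and 26.2% to 27.1% for complex V, to the right and to the left of the other tubule classes.

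Complex I assembly factors, which build the enzyme without staying in it, did not move as 1 group. Ndufaf5 had 38.8, 43.0, 38.6 and 47.7 CPM in loop-like and 17.5, 16.8, 16.5 and 19.0 in proximal tubule-like cells. It was higher in loop-like (log2 fold change 1.26, SE 0.15), distal convoluted (1.16, SE 0.20) and collecting duct-like cells (0.76, SE 0.18), the last not with TMM factors (edgeR, Benjamini-Hochberg adjusted p = 0.106). Ndufaf7 was also higher in loop-like cells, at 1.08 (SE 0.14). Ndufaf6 went the other way: its 51.8, 53.5, 47.1 and 51.6 CPM in proximal tubule-like cells faced 15.9, 23.3, 10.7 and 13.2 in collecting duct-like cells. The fall was 1.72 there (SE 0.21, edgeR, Benjamini-Hochberg adjusted p = 2.09e-09), and Ndufaf6 fell by 1.16 (SE 0.22) in distal convoluted and by 1.18 (SE 0.24) in intercalated-like cells.

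Some isoforms marked single classes. Cox7a1 had 174, 228 and 145 CPM in intercalated-like cells and 30.8, 30.1, 24.8 and 22.1 in proximal tubule-like cells (log2 fold change 2.84, SE 0.22, edgeR, Benjamini-Hochberg adjusted p = 2.23e-14). Collecting duct-like cells lay between, at 82.5, 53.1, 84.5 and 68.6 (log2 fold change 1.46, SE 0.21). The 3 classes did not overlap, and T-like cells had 1.52 to 4.22 CPM. Its widespread partner Cox7a2 stood at 1170, 1149, 1072 and 1056 CPM in proximal tubule-like cells.

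Cox7a2l is the member listed above as supercomplex factor. Whether its protein joins complexes III and IV in mice of this strain was not tested, so its values are RNA levels only. Cox7a2l had 731, 530 and 573 CPM in intercalated-like cells against 222, 250, 193 and 251 in proximal tubule-like cells. Its log2 fold change there was 1.43 (SE 0.11, edgeR, Benjamini-Hochberg adjusted p = 7.35e-15). Loop-like cells had 510, 407, 405 and 414 (log2 fold change 0.92, SE 0.10). It was the only nuclear member called higher in endothelial-like cells, at 0.51 (SE 0.11), a call lost with TMM (0.00) and DESeq2 size factors and turned to -0.18 without the cells of most UMIs. T-like cells had more Cox7a2l than macrophage-like cells (551, 575, 469 and 466 against 419, 433, 298 and 334 CPM).

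Cox6a2, the heart and muscle isoform of another complex IV subunit, was concentrated in 1 dendritic-like cluster of 179 cells whose first marker was Siglech. There 88.3% of cells had a Cox6a2 UMI, and the level was 920, 1063, 616 and 790 CPM from 54, 43, 25 and 57 cells. The next highest cluster, the endothelial-like one, had 6.65 CPM, 14 UMIs in 0.465% of its 215 cells. Ndufa4l2, an isoform of Ndufa4 known to rise in hypoxia, had 86 UMIs in 9 of the 215 endothelial-like cells. All 9 also had UMIs of the pericyte genes Rgs5 and Pdgfrb, against 2 and 1 of the other 206 cells, and all 9 had UMIs of the endothelial gene Pecam1. Whether these 9 barcodes held more than 1 cell was not tested. Cox4i2, Cox8b and Cox8c were not analysed here.

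**Figure D4:**
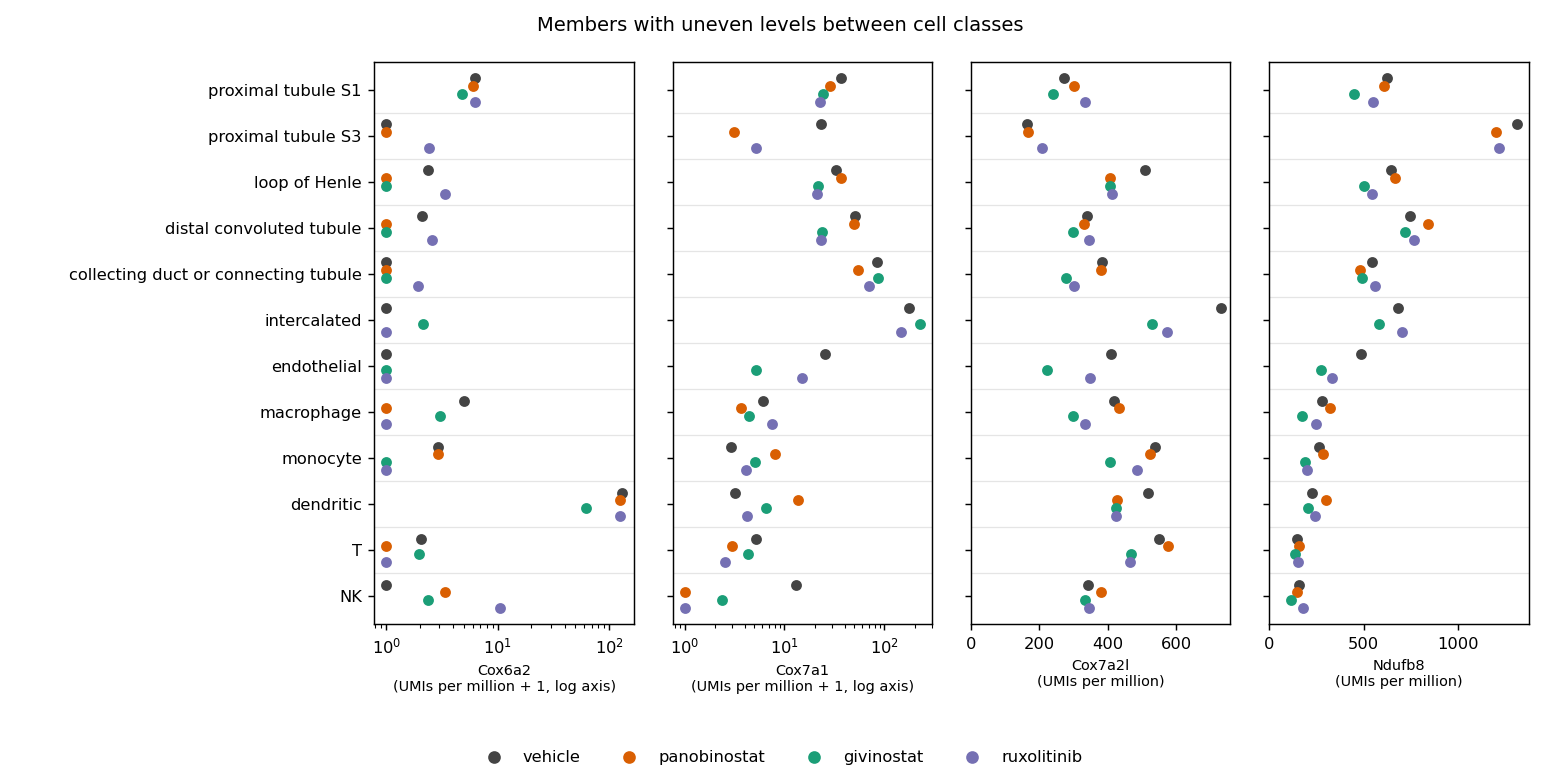
Level of Cox6a2 and Cox7a1 (CPM plus 1, log axes) and of Cox7a2l and Ndufb8 (CPM) in 12 cell classes (rows), 1 point per library with at least 50 cells. Cox6a2 stands out in dendritic-like cells, Cox7a1 in intercalated-like cells and Ndufb8 in S3-like cells.

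Along the proximal tubule, S3-like cells (1 cluster of 235 cells, 59, 62 and 74 of them in the vehicle, panobinostat and ruxolitinib libraries, with too few in the givinostat library) were compared with S1-like cells (2403 cells). The S1-like cells pool clusters 0 and 4, which are unlike. Their summed nuclear level was 33336 to 40921 CPM in cluster 0 and 81962 to 85084 in cluster 4, with S3-like cells between at 59212 to 64751. The nuclear counts below thus hold against the pool, not against each cluster. The mitochondrial share was 12.1% to 14.7% in cluster 0 and 18.8% to 23.2% in cluster 4, both below S3-like cells. All 13 mitochondrial members were higher in S3-like cells, with a median of 0.63, as were 26 of 87 nuclear members, with 8 lower (edgeR, 10921 genes, of which 11.7% were higher and 33.3% lower). Mitochondrial UMIs took 23.8%, 24.4% and 25.2% of all UMIs in S3-like cells against 17.5%, 15.9%, 15.1% and 15.6% in S1-like cells. There were 4.83, 5.44 and 5.69 mitochondrial UMIs per nuclear member UMI against 3.86, 3.45, 3.94 and 3.71, with no overlap. Other proximal tubule-like clusters came near or above the S3-like values. Cluster 2 had mitochondrial shares of 23.5%, 23.7%, 23.5% and 25.7%, and cluster 6 had 5.45, 5.16, 5.16 and 5.98 mitochondrial UMIs per nuclear member UMI. The nuclear count was 67 higher and 5 lower with TMM factors and 68 and 5 with DESeq2 size factors. Relative to all genes the nuclear median was 0.54. Without the vehicle library 15 nuclear members were higher and 4 lower, and without the ruxolitinib library 15 and 5.

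Ndufb8, an accessory complex I subunit, had 1316, 1202 and 1218 CPM in S3-like and 623, 610, 449 and 549 in S1-like cells (log2 fold change 1.07, SE 0.10, edgeR, Benjamini-Hochberg adjusted p = 3.86e-15). The assembly factor Ndufaf2 followed, at 101, 94.4 and 88.9 against 41.7, 43.3, 35.7 and 36.2 CPM (log2 fold change 1.23, SE 0.17). Of complex I, 15 of 36 nuclear subunits were higher, and of complex V 1 of 15. With TMM factors, and likewise with DESeq2 size factors, these became 34 of 36 and 11 of 15. Isoforms known from muscle or testis were lower in S3-like cells. Cox7a1 fell by 1.60 (SE 0.36), and Cox6b2, the testis isoform, fell by 2.51 (SE 0.50), from 12, 1 and 3 and from 1, 3 and 2 UMIs in S3-like cells. Cox6a2, a muscle isoform, was also called lower (edgeR, Benjamini-Hochberg adjusted p = 0.0183), at 5.27, 5.07, 3.79 and 5.29 CPM in S1-like cells and 0, 0 and 1 UMI in S3-like cells, too few for a fold change. Complex V took 23.7%, 24.5% and 24.3% of nuclear member UMIs in S3-like cells and 27.2%, 28.2%, 27.5% and 27.6% in S1-like cells.

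The 7 proximal tubule-like clusters fell into 2 bands of nuclear level. Clusters 2, 4 and 5 had 72684 to 85084 CPM over all libraries, and clusters 0, 1 and 6 had 33336 to 44132, with S3-like cluster 19 between them at 59212 to 64751. Cluster 5, led by Inmt, had the fewest UMIs per cell (median 4953 to 8983) and cluster 1, led by Pdk4, the most (14496 to 22644). Depth thus differed between clusters of the 2 bands, and its part was not tested. The mitochondrial share of cluster 5 was 21.6%, 14.7%, 17.4% and 17.7%, with vehicle highest.

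Other genes of oxidative metabolism were read from 4 lists. Of 15 glycolysis enzymes, 9, 11, 11 and 12 were higher and 3, 2, 3 and 1 lower in loop-like, distal convoluted, collecting duct-like and intercalated-like than in proximal tubule-like cells (edgeR). Of all genes 42.7%, 34.5%, 47.1% and 43.7% were higher and 21.4%, 18.1%, 20.8% and 17.7% lower in these contrasts. Ldhb, the lactate dehydrogenase chain of oxidative tissues, rose by 1.05 (SE 0.21), 1.31 (SE 0.21), 1.08 (SE 0.21) and 1.74 (SE 0.23). Relative to all genes the medians of the list were 0.76, 0.63, 0.69 and 1.29. Of 12 Krebs cycle enzymes, 6 were higher and 1 lower in distal convoluted cells, 7 and 1 in intercalated-like cells and 0 and 11 in endothelial-like cells, with medians relative to all genes of 0.01, 0.04 and -1.18. Of all genes 34.5%, 43.7% and 43.6% were higher and 18.1%, 17.7% and 20.4% lower in these contrasts. Mdh2, the mitochondrial malate dehydrogenase, rose by 0.69 (SE 0.11) and 0.76 (SE 0.11) in the first 2 and fell by 0.56 (SE 0.12) in the third. Of 22 genes of mitochondrial genome expression and biogenesis, 0 were higher and 11 lower in S3-like than in S1-like cells (11.7% and 33.3% of all genes, median -0.39 relative to all genes), where all 13 mitochondrial members were higher. Among them Esrra, a nuclear receptor that drives mitochondrial genes, fell by 1.38 (SE 0.17) and Lars2, a mitochondrial tRNA synthetase, by 1.03 (SE 0.12). Of 33 assembly and carrier genes outside the rule, 8 were higher and 9 lower in loop-like cells (42.7% and 21.4% of all genes), with a median of -0.24 relative to all genes. Atpif1, the inhibitor of complex V, fell by 0.66 (SE 0.12), 0.79 (SE 0.12), 0.81 (SE 0.12) and 1.00 (SE 0.13) in the loop-like, distal convoluted, collecting duct-like and intercalated-like classes, below the medians of complex V in each (0.27, 0.66, 0.16 and 0.62). That order between the inhibitor and the enzyme does not depend on the scaling, which moves both alike.

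The drug libraries are described next, each against the 1 vehicle library. A member was counted as above vehicle when its level was over 25% higher and as below when it was over 20% lower, the same distance on the log2 scale, with 5 CPM added to both levels and among genes with a mean of at least 20 CPM. In proximal tubule-like cells 84 nuclear members passed that filter. With panobinostat 0 were counted above and 0 below (1.68% and 4.28% of 6191 genes), with givinostat 0 and 5 (5.65% and 4.14%) and with ruxolitinib 0 and 4 (9.53% and 2.65%). Their median log2 ratio was 0.06, -0.13 and -0.08, against 0.00, 0.03 and 0.07 over all genes. Within the 6 clusters large enough, the panobinostat median was between -0.11 and 0.01, so the pooled 0.06 was not seen within clusters. With givinostat 37 of 83 nuclear members were counted below vehicle in cluster 0 and 26 of 84 in cluster 6 (10.3% and 11.1% of all genes), and 9, 2, 5 and 6 in clusters 1, 2, 4 and 5 (6.95%, 6.70%, 10.8% and 14.0%). With ruxolitinib 12 of 84 were below in cluster 6 (7.20%) and 6, 2, 4, 4 and 7 in clusters 0, 1, 2, 4 and 5 (5.12%, 3.39%, 6.29%, 9.83% and 12.1%). Clusters 0 and 6 belong to the band of low nuclear level, and the givinostat count in each of them exceeded the pooled count of 5. Clusters 2, 4 and 5, those of high nuclear level, held 42.7%, 52.5%, 43.4% and 39.8% of the proximal tubule-like cells, most in the panobinostat library, and the part of this was not tested.

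The givinostat ratio was lowest in Atp5g1, 1 of 3 genes for the rotor ring of complex V, with 1182, 1217, 856 and 1096 CPM (ratio 0.724, exact 95% interval 0.709 to 0.741, counting error only). Atp5d, of the central stalk of complex V, and Ndufb11, of complex I, followed at 0.773 (0.755 to 0.791) and 0.774 (0.750 to 0.798). With ruxolitinib the lowest were Ndufa3, Atp5k and Cox6b1, at 0.738 (0.709 to 0.768), 0.751 (0.728 to 0.775) and 0.786 (0.770 to 0.802). Atp5k, which helps complex V form dimers, had 521, 577, 628 and 392 CPM. Its givinostat value was the highest and its ruxolitinib value the lowest of the 4. With TMM or DESeq2 size factors 18 of the 97 members of both genomes that passed the filter were counted below vehicle with givinostat, and 11 or 9 with ruxolitinib.

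Loop of Henle-like cells showed the widest distance from vehicle in both measures among the tubule classes with all 4 libraries. Their mitochondrial share was 15.1%, 13.1%, 10.8% and 10.9%, at 0.865 (0.860 to 0.870), 0.715 (0.712 to 0.719) and 0.719 (0.715 to 0.722) of vehicle with panobinostat, givinostat and ruxolitinib. The share of the median cell was 11.9%, 11.3%, 8.46% and 8.33%. The nuclear members summed to 64861, 57287, 52511 and 52584 CPM, ratios of 0.883, 0.810 and 0.811. All 3 drug libraries were below vehicle in both measures, givinostat and ruxolitinib by nearly the same amount.

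Of 85 nuclear members in loop-like cells, 3, 36 and 31 were counted below vehicle with panobinostat, givinostat and ruxolitinib (9.81%, 13.2% and 11.0% of 6731 genes) and 1, 1 and 1 above (10.8%, 9.63% and 11.3%). Of the 13 mitochondrial members 1, 8 and 12 were below. With givinostat 19 of 36 subunits of complex I, 1 of 4 of complex II, 3 of 8 of complex III, 7 of 12 of complex IV and 5 of 15 of complex V were below, and with ruxolitinib 13, 2, 5, 7 and 4. No nuclear subunit of a complex was counted above with either drug. mt-Co2, the subunit of complex IV that takes electrons from cytochrome c, was lowest of all members with givinostat and mt-Nd4l of complex I with ruxolitinib, the latter at 724, 583, 703 and 414 CPM (ratio 0.571, 0.528 to 0.618). Ndufb9 of complex I was lowest among nuclear members with givinostat, with 1199, 977, 742 and 825 CPM (ratio 0.618, 0.581 to 0.658). Atp5k was lowest among nuclear members with ruxolitinib, with 656, 619, 673 and 411 (ratio 0.626, 0.578 to 0.679). The complex I assembly factors did not share this: 1 of 8 was above and 0 below with each drug. These cells numbered 225, 144, 163 and 264, their proximal tubule marker level was 7.41%, 11.0%, 2.46% and 3.26% of that in proximal tubule-like cells, and the part of the latter was not tested. At a finer clustering, an alternative chosen after seeing the data, the class split in a cluster of high level, with nuclear ratios of 0.935, 0.897 and 0.895, and one of low level, with 0.799 and 0.872 for givinostat and ruxolitinib. Each of these ratios was below 1, and the first set lay nearer to 1 than that of the pooled class.

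In macrophage-like and monocyte-like cells together, 0, 22 and 10 of 79 nuclear members were counted below vehicle (8.98%, 9.83% and 8.40% of all genes) and 3, 0 and 0 above (9.82%, 15.6% and 11.8%). The pool holds both classes in unequal parts, with 137 of 285, 127 of 389, 152 of 459 and 172 of 408 cells macrophage-like. Counted apart, a split added after seeing the data, 34 and 12 of 79 nuclear members were below with givinostat and ruxolitinib in macrophage-like cells (15.3% and 10.8% of genes) and 18 and 18 of 79 in monocyte-like cells (11.6% and 13.5%). Atp5g1 was again the lowest of the pool with givinostat, with 403, 384, 254 and 318 CPM (ratio 0.632, 0.578 to 0.691). In T-like cells 0, 2 and 1 of 78 nuclear members were below (8.98%, 3.58% and 4.99%) and 3, 5 and 0 above (7.76%, 12.4% and 10.7%). In T-like cells the counts with givinostat were thus near or under those of genes at large. Endothelial-like cells had 40377, 23163 and 28720 CPM of nuclear members, ratios of 0.574 and 0.711 with givinostat and ruxolitinib, from 50, 68 and 53 cells.

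Over all 11 classes, the summed nuclear level was below vehicle in 10 with givinostat and in 9 with ruxolitinib, and in 3 of 9 with panobinostat. The ruxolitinib count became 5 of 7 classes with a stricter cell filter and 5 of 9 without cells above 2 times the median UMIs. Of the 78 single nuclear members measured in all 11 classes, 15 were below vehicle in every class with givinostat, against 4.58% of 3473 genes. They include Atp5g1, Atp5d, Ndufb11, Cox4i1, Uqcrh and Ndufb8, with median log2 ratios between -0.36 and -0.28. With ruxolitinib 9 were, against 1.64% of genes, with Ndufa3 (-0.31), Cox6b1 (-0.25) and Cox8a (-0.21) at the lower end. With givinostat and ruxolitinib 0 of the 78 were above vehicle in all 11 classes (1.99% and 2.76% of genes), and with panobinostat 0 were above or below in all 9 (1.49% and 0.574%). The classes share their library, so these counts are not independent of each other. Depth also differed between the libraries: over all kept cells the median UMIs per cell were 7957.5, 6568.5, 10020.5 and 8370. By class the givinostat median was above vehicle except in distal convoluted tubule-like cells (12786.5 with vehicle and 10501.5 with givinostat). The panobinostat median was below vehicle in each class measured, and the ruxolitinib medians lay on both sides. The part of depth was not tested.

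The make-up of the mitochondrial UMIs, a ratio within the 13 members, differed by library in every class. mt-Atp8, a subunit of the membrane part of complex V, took 0.184%, 0.201%, 0.309% and 0.167% of the mitochondrial UMIs of proximal tubule-like cells and 0.143%, 0.135%, 0.249% and 0.146% of those of T-like cells. In each of the 11 classes its share was higher with givinostat than with vehicle, by 1.38 to 1.88 times with a median of 1.72. The same held for the complex I subunits mt-Nd3 (median 1.43), mt-Nd4l (1.43), mt-Nd6 (1.55) and mt-Nd5 (1.17), and, by a median of 1.04, for mt-Co1. The shares of mt-Co2 (0.909) and mt-Atp6 (0.947) were lower in all 11. The 4 highest medians were those of the 4 shortest of the 13 genes (204 to 519 bases), but mt-Nd5 and mt-Co1 are the 2 longest (1824 and 1545 bases). Lengths are those of the annotated genes, and the lengths of the RNA molecules were not measured.

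With ruxolitinib the share of mt-Nd4l was below vehicle in all 11 classes (median 0.844) and that of mt-Co3 above it in all 11 (1.08), while mt-Atp8 was below in 10 of 11 (0.933). In common with givinostat, mt-Co2 was below vehicle in all 11 classes (0.941) and mt-Nd6 above in 10 of 11 (1.20). With panobinostat mt-Nd3 was above vehicle in all 9 classes measured (1.17). mt-Nd3 had 3132, 3526, 4296 and 3073 CPM in proximal tubule-like cells. In proximal tubule-like cells mt-Atp8, mt-Nd6, mt-Nd3 and mt-Nd4l were the 4 mitochondrial members counted above vehicle with givinostat, against 0 with either other drug. mt-Atp8 and mt-Nd4l share bases with their neighbours, as capitals show above.

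**Figure D5:**
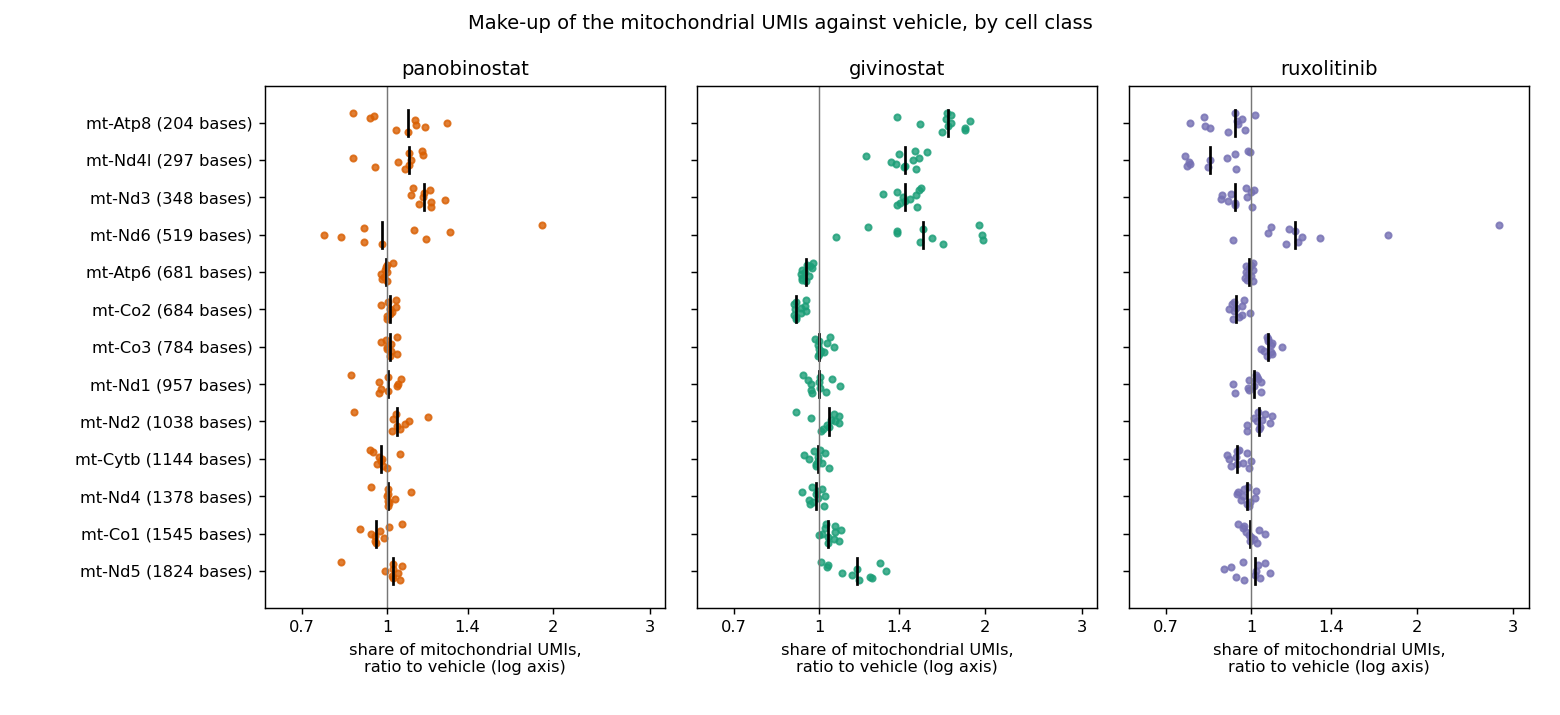
Share of each mitochondrial gene among the mitochondrial UMIs, as a ratio to vehicle (x axes, log scale), for 13 genes ordered by length (rows). Each point is a cell class and each black bar the median over classes. With givinostat the 4 shortest genes lie right of 1 in every class, with medians of 1.43 to 1.72.

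Length also went with the ratio to vehicle among all genes, so the members were set beside genes of like length. Over 6075 genes of proximal tubule-like cells the Spearman correlation of transcript length with the log2 ratio was -0.26, 0.50 and 0.50 with panobinostat, givinostat and ruxolitinib. These genes share 2 libraries and are not replicates. Among transcripts of 600 to 1000 bases the givinostat median was -0.17 for 29 nuclear members and -0.19 for all genes, and among those of 1000 to 2000 bases -0.18 for 28 members and -0.10 for all genes. With givinostat, proximal tubule-like members of 600 to 1000 bases thus lay close to genes of their own length. Those of 2000 bases or more did not, at -0.087 for 11 members against 0.083 for all genes. With ruxolitinib the members lay lower at each length, by most under 600 bases (-0.20 against -0.11) and from 2000 bases (0.03 against 0.12). In loop-like cells the givinostat medians of the members lay lower, at -0.32 against -0.22 for 600 to 1000 bases and at -0.30 against -0.11 for 1000 to 2000. The part of length in the drug ratios was not tested further.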

How the data were processed

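Single-cell RNA of kidney cell suspensions was measured by 3' droplet sequencing. The authors deposited UMI counts per gene and cell, made with Cell Ranger 3.0.1 and mm10 per the submitters' processing notes; how cells were selected is not given in the sources used here. The deposited counts were not normalized. Of 16003 cells, 226 with under 200 genes were left out. The members and gene lists were chosen with earlier results of these data known.

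Cells were clustered without the 101 members in scanpy 1.11.5 (10000 counts per cell, 2000 variable genes, 30 components, 15 neighbours, Leiden resolution 1 with leidenalg 0.10.2) and named from marker lists with thresholds set after seeing the data. Scrublet called 0.0509% to 0.101% of cells as doublets and has not worked, so no doublets were removed. Of the barcodes, 20 occurred in more than 1 library.

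UMI counts were summed per class and library with at least 50 cells. Levels (CPM) are UMIs per 1000000 UMIs of genes not encoded in mitochondria. Intervals are exact at 95% (Clopper-Pearson, Poisson or conditional binomial) and cover counting error only. Classes were compared by edgeR 4.0.16 (glmQLFit and glmQLFTest in R 4.3.3) with 1 term per library, low counts removed by filterByExpr and Benjamini-Hochberg adjustment over all genes tested, with 30 residual degrees of freedom, or 2 for S3 against S1. All classes of a fit shared 1 estimate of the spread per gene, which edgeR drew toward that of other genes. With 2 residual degrees of freedom, the p-values of S3 against S1 rest on other genes more than those of the class fit. The p-values cover no spread beyond these 4 libraries. On simulated counts with 200 changed genes, the loop of Henle contrast recovered 41.8% of 67 genes changed 1.5-fold and 89.4% of 66 changed 2-fold, the S3 contrast 14.9% and 51.5%, and smaller changes were mostly missed. The simulated counts had 1 fixed dispersion, no library effect and compared classes alike but for the changed genes. In the real loop contrast 42.7% of genes were called higher and 21.4% lower, so these shares need not hold there. Alternatives were edgeR TMM factors, DESeq2 1.42.0 and its size factors, other filters, pseudocounts, folds and clusterings, and each library left out.

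Named genes were the 13 mitochondrial genes, the isoform groups, the 3 highest and 3 lowest members per class contrast or drug, and genes of the lists by level. Members above or below vehicle in all classes, Ndufa5 outside its contrast, Ldhb, Mdh2, Esrra, Lars2 and Atpif1 were named after their values were seen. Motifs were searched in RefSeq promoters of GRCm38.p6.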

Additional observations from a re-analysis of the deposited data

How the results depend on the processing

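All 3 drug ratios of loop of Henle-like cells stayed below 1 in mitochondrial share and nuclear level under every alternative. Of the values for named members between classes, 572 kept direction and side of the threshold, 13 lost and 10 gained the call, and Cox7a2l in endothelial-like cells turned to -0.18 without cells above 2 times the median UMIs; of those against vehicle, 247 stayed within counting error and 403 moved, and of the class ratios 477 and 448. With a stricter cell filter (500 genes, 1000 UMIs, 20% mitochondrial) the classes below vehicle became 3 with panobinostat and 5 with givinostat in mitochondrial share, 5 with ruxolitinib in nuclear level and 3 with givinostat in the ratio of both; without cells above 2 times the median UMIs they became 3 (ruxolitinib, mitochondrial share), 5 (ruxolitinib, nuclear level) and 5 (panobinostat, ratio), the last also 5 as a mean over cells. In proximal tubule-like cells, members over 25% above or over 20% below vehicle with panobinostat were 1 above and 1 below vehicle in cluster 0, 9 below in cluster 4, 2 above and 15 below in cluster 5 and 3 below in cluster 6. With givinostat they were 18 below under TMM or DESeq2 size factors, 3 with a pseudocount of 20, 8 with the stricter cell filter, 40, 9, 2, 12 and 32 in clusters 0, 1, 2, 5 and 6, and 2 above in clusters 0 and 6; past 1.5-fold 2 were above and 0 below. With ruxolitinib 11 and 9 were below under TMM and DESeq2 size factors, 0 past 1.5-fold, 2 with the stricter cell filter, 8, 2, 18 and 12 in clusters 0, 1, 5 and 6, and 1, 1, 2 and 1 above in clusters 2, 4, 5 and 6. The nuclear median with panobinostat was 0.10 with TMM factors, 0.13 with the stricter cell filter and -0.038, -0.0035, -0.042, -0.024, 0.014 and -0.11 in clusters 0, 1, 2, 4, 5 and 6. With givinostat it was -0.19 with TMM and -0.19 with DESeq2 size factors and -0.29, -0.078, -0.079, -0.076 and -0.25 in clusters 0, 2, 4, 5 and 6. With ruxolitinib it was -0.19 and -0.18 with those factors, -0.025 with the stricter cell filter and -0.13 and -0.17 in clusters 0 and 6. Between classes, nuclear members higher and lower were 4 and 40 (TMM) and 9 and 21 (DESeq2 size factors in edgeR) in loop-like cells; 29 and 8 with TMM, 4 lower with those size factors and 2 lower with DESeq2 in distal convoluted cells, where 3 mitochondrial members were higher with TMM; 2 and 58, 7 and 38, and 49 and 12 when members were used in clustering, in collecting duct-like cells, where mitochondrial members were 1 and 6, 4 and 3, and 0 lower; 20 and 12 with TMM and 8 lower with size factors in intercalated-like cells, with mitochondrial members 1 and 5, 4 and 4, 2 higher and 0 lower without cells above 2 times the median, and 0 lower with no block for the library; 0 higher in endothelial-like cells with TMM, with size factors and without cells above 2 times the median, and 2 with no filter on low counts; 8 lower with TMM and 13 and 14 without cells above 2 times the median in macrophage-like against T-like cells; and 14 and 4 (DESeq2), 67 and 5 (TMM), 68 and 5 (size factors), 56 and 5 (members in clustering) and 40 and 4 (without cells above 2 times the median) in S3-like cells. Leaving out 1 library at a time gave 17 to 24 higher and 7 to 13 lower in loop-like cells, 1 to 2 lower in distal convoluted cells, 12 to 23 higher in collecting duct-like cells with 0 to 1 mitochondrial members lower, 4 to 8 mitochondrial members higher and 0 to 1 lower in intercalated-like cells, 1 to 2 nuclear members higher in endothelial-like cells, and 15 to 30 higher and 4 to 8 lower in S3-like cells. Apart from effects of the scaling itself, the cause was not tested. With the members in clustering no distal convoluted class was named, so that alternative gave no value there. Its collecting duct-like cluster held 625 cells, against 328 in the main clustering. Among the first 10 genes of that cluster were Slc12a3 and Calb1, listed markers of the distal convoluted tubule, beside Aqp2. The counts of 49 and 12 thus belong to a class that also held distal convoluted-like cells. No paired analysis was possible because each treatment group has 1 library, which concerns the drug comparisons, and the class contrasts carry 1 term per library.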
